A study of Mus musculus with 4 samples.

Results

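Lysosomal enzymes and membrane proteins, cathepsins left out, were followed in gamma delta intraepithelial lymphocytes, the T cells that sit between the epithelial cells of the gut. The set was a list of 33 genes for lysosomal hydrolases, their cofactors and lysosomal membrane proteins, each read on the probe sets that carry its symbol alone. Of these, 32 had such a probe set, 77 probe sets in all. All 32 were among the 12424 genes tested, on 65 probe sets that passed the filter on low values. Cd63 had no probe set with its symbol alone and was not analysed here.

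All cells were sorted from colons of C57b/6 mice under conventional housing. The DSS group (n = 2 arrays) came from mice that drank 2% dextran sulfate sodium, a polymer that damages the gut lining, over 5 days, and then had 3 days of recovery on plain water. The untreated group (n = 2 arrays) came from mice of the same strain and housing with no treatment. The labels give neither mouse age nor whether each array had its own animal, pool or sort, so the spread between arrays may be technical. The comparison asks how transcripts of these lymphocytes differ between the injured, recovering colon and the untreated colon.

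Lysosomes are acidic organelles that break down material delivered by endocytosis, phagocytosis and autophagy. Soluble hydrolases are tagged with mannose 6-phosphate and carried there by receptors, a proton pump keeps the lumen acidic, and heavily glycosylated membrane proteins line the boundary. Macrophages are rich in lysosomes, and cytotoxic lymphocytes store granzymes and perforin in granules of the same lineage.

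Of the 32 lysosomal genes, 22 had a higher mean signal in the DSS samples and 10 a lower one. Signals are linear intensities, and differences are DSS minus untreated in log2(signal + 32), a scale on which dim genes appear to differ less than they do. The median difference was 0.39 log2 over the 32 genes, beside -0.07 over all 12424 genes. Both DSS arrays lay above both untreated arrays for 11 of 32 genes (34.4%, against 17.2% of all genes), and below them for 7 of 32 (21.9%, against 23.8%). At least 2-fold apart were 2 genes on the higher side, Gusb and Asah1 (2.18% of all genes), and 2 on the lower side, Npc1 and Laptm5 (2.38% of all genes). Of the 32, Gusb alone passed the filter on low values only through its DSS arrays, and none only through its untreated arrays, so the higher side is 1 gene, Asah1, without it. None of the 32 passed limma with Benjamini-Hochberg adjustment over all genes, where 0% of genes passed, and their smallest adjusted p was 0.503. At an unadjusted limma p under 0.05 there were 6 of them (18.8%, against 7.52% of all genes). Gusb, Asah1, Psap and Scarb2 were higher (12.5%, against 3.71%), and Npc1 and Laptm5 were lower (6.25%, against 3.81%). Gusb, which had to be higher because of the filter, is counted here and among the 11 genes above. Of all 12424 genes, 365 passed the filter through the DSS arrays alone and 386 through the untreated arrays alone. With 2 arrays a group, an exact two-sided permutation test of a single gene could not go below p = 0.33.

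**Figure D1:**
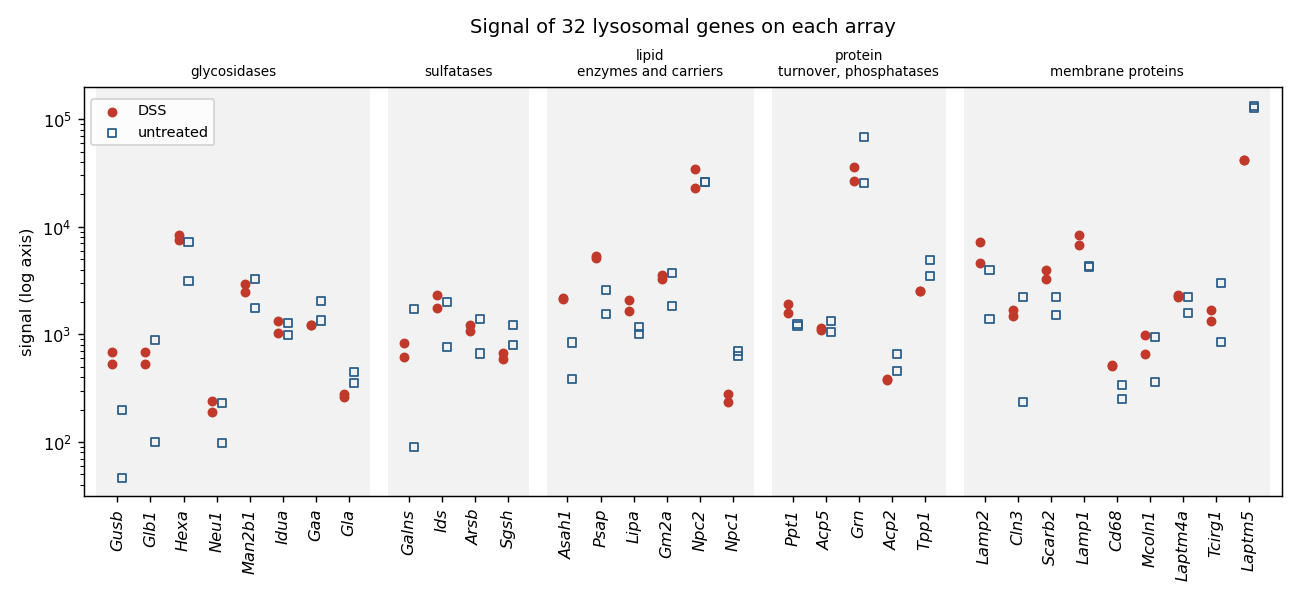
Signal (log axis) of each of the 32 lysosomal genes on its brightest kept probe set, with the 2 DSS arrays as filled circles and the 2 untreated arrays as open squares, grouped by role. The DSS circles are less than 2-fold apart for every gene, while the untreated squares are more than 2-fold apart for 14 genes.

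The untreated arrays lay farther apart than the DSS arrays. The median gap between the DSS arrays was 0.23 log2 over the 32 genes, and 0.65 log2 between the untreated arrays. The DSS arrays were more than 2-fold apart for 0 of the 32 genes (13.4% of all genes), and the untreated arrays for 14 (34.5% of all genes). Of those 14, untreated replicate 1 was the brighter array for 6 and untreated replicate 2 for 8. Without untreated replicate 1 the median of the 32 genes was -0.04 (-0.18 over all genes), with 15 genes higher and 15 lower on the DSS arrays (35.4% and 47.7% of all genes). Without untreated replicate 2 it was 0.53 (-0.08 over all genes), with 20 higher and 8 lower (36.9% and 42.1% of all genes). In counts, more of the 32 genes were higher than lower in each comparison of 3 arrays except the one without untreated replicate 1. Fitted on 3 arrays, with the lone untreated array assumed to vary like the DSS arrays, limma called 11 of the 32 genes without untreated replicate 1 (14.4% of all genes). It called 7 without untreated replicate 2 (6.08% of all genes). Gusb, Asah1, Psap, Galns and Laptm5 passed in both fits, Galns with opposite signs (-1.22 and 2.62).

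Array-wide facts touch every value below. Hybridisation controls, bacterial and phage transcripts added before hybridisation, had mean signals of 14372 and 15271 on the DSS arrays, against 82269 and 59067 on the untreated arrays. Treatment and array handling cannot be told apart. The ratio of 3′ to 5′ signal for Actb was 16 and 11 on the DSS arrays, against 15 and 23 on the untreated arrays. The groups overlapped in it, and untreated replicate 2 had the highest ratio. Its part in disagreements between probe sets, or in the gaps between the untreated arrays, was not tested. Macrophage and dendritic cell markers moved with the groups: their summed signal was 66675 and 93228 in DSS samples, against 12114 and 6078 in untreated samples. Of 17 such markers measured 13 were tested, and 12 of those lay higher on both DSS arrays, of which 3 (C1qc, Mrc1 and Siglec1) passed the filter through the DSS arrays alone. Markers of T cells and intraepithelial lymphocytes summed to 309497 and 328199 in DSS samples, against 618426 and 560132 in untreated samples. Of 12 tested, 2 lay higher on both DSS arrays (Cd3d and Cd3g), 5 lay lower and 5 overlapped, and bright genes such as Gzma, Ccl5 and Itgae carry most of the sum. Of these bright genes, Ccl5 was lower on both DSS arrays and Gzma overlapped. Itgae gave -1.20 where brightest and 0.52 on its other kept probe set. In RNA from a whole sorted population, fewer cells of a type and less RNA per cell cannot be told apart.

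Glycosidases trim sugars from glycoproteins, glycolipids and glycosaminoglycans, and 8 were tested. Of these, 2 lay higher on both DSS arrays, 2 lay lower and 4 overlapped, with a median difference of 0.29 log2. The shares over all genes, 17.2% higher and 23.8% lower, are the background for this and every other role class. Gusb, the beta-glucuronidase of glycosaminoglycan breakdown, had signals of 527 and 685 in DSS samples, against 46.7 and 198 in untreated samples. Its log2 difference of 2.23 ± 0.66 (SE, n = 2 per group) was the highest of the 32 genes, and limma gave an adjusted p of 0.649. The groups did not overlap, but the gap between them was smaller than the gap between the untreated arrays. Both untreated signals lay under their arrays' medians of 194 and 214, so the size of the difference rests on dim values. Gusb passed the filter on low values through the DSS arrays alone, and had to be higher there. Leaving out either untreated array gave 1.46 or 3.01. Hexa, a subunit of the hexosaminidase that degrades GM2 ganglioside, was also higher on both DSS arrays, although the brighter untreated array came close to them at 7197 against 7537. Gla (alpha-galactosidase) and Gaa, which degrades glycogen, lay lower on both DSS arrays, with differences of -0.50 and -0.42. Glb1, Neu1, Man2b1 and Idua, which remove galactose, sialic acid, mannose and iduronic acid in turn, overlapped between the groups. For Glb1 the untreated signals alone ranged from 99.6 to 882, around DSS signals of 527 and 688.

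Sulfatases strip sulfate from glycosaminoglycans, and 4 were tested. None lay higher on both DSS arrays, while 1 lay lower: Sgsh, the heparan sulfamidase, with a difference of -0.62 on its brightest probe set. Its other gave -1.13, but passed the filter on low values through the untreated arrays alone, and had to be lower in DSS samples. Galns and Arsb overlapped, and for Galns the untreated signals were 89.0 and 1709. Ids, the iduronate sulfatase, had 2320 and 1774 in DSS samples, against 2002 and 757 in untreated samples, which gave 0.70 ± 0.53 (SE). It was 1.39 without untreated replicate 1 and 0.02 without untreated replicate 2. Its other kept probe sets ranged from -2.04 to 0.97, and the one at 0.97 passed the filter on low values through the DSS arrays alone. The direction of Ids depended on the probe set read.

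Lipid enzymes and carriers held the largest difference after that of Gusb. Of 6 tested, 3 lay higher on both DSS arrays, 1 lay lower and 2 overlapped, with a median of 0.56 log2. Asah1, the acid ceramidase that splits ceramide into sphingosine and fatty acid, had 2190 and 2122 in DSS samples, against 841 and 383 in untreated samples. The DSS signals were nearly equal, and the gap to the brighter untreated array exceeded the gap between the untreated arrays. It differed by 1.86 ± 0.47 (SE, n = 2 per group), with a limma adjusted p of 0.649. Psap encodes the precursor of the saposins, small proteins that present sphingolipids to hydrolases such as acid ceramidase. It had 5145 and 5373 in DSS samples, against 2568 and 1556 in untreated samples. Its difference was 1.38 ± 0.41 on this probe set and 0.39 on the other, and both probe sets separated the groups. Lipa, the acid lipase that frees cholesterol from its esters, lay higher where brightest, at 0.75, while the remaining probe sets gave -0.49 and -0.11.

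Npc1 and Npc2 hand cholesterol out of the lysosome together, Npc2 as a soluble carrier in the lumen and Npc1 as the transporter in the membrane. Npc1 had 234 and 278 in DSS samples, against 703 and 627 in untreated samples. It was the lowest of the lipid genes at -1.27 ± 0.42 (SE, n = 2 per group; limma adjusted p = 0.649), and both groups were tight. Npc2 had 22883 and 34532 in DSS samples, against 25854 and 26113 in untreated samples, and the groups overlapped at 0.11 ± 0.38. On its other kept probe sets Npc2 was higher on both DSS arrays, by 0.65 and 0.68. Gm2a, the activator protein that lifts GM2 ganglioside for hexosaminidase, overlapped at 0.38.

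Enzymes of protein and peptide turnover and the phosphatases were the only role class with a median below 0, at -0.42 log2 over 5 genes. Tpp1, a tripeptidyl peptidase, was lower on both DSS arrays on each of its probe sets, with differences of -0.70 and -0.72. Acp2, the lysosomal acid phosphatase, also lay lower, at -0.50 where brightest, while the remaining kept probe sets gave 0.22 and 0.98. Acp5, the tartrate-resistant acid phosphatase of osteoclasts and macrophages, overlapped at -0.06. Ppt1, which removes palmitate from proteins, had 1582 and 1926 in DSS samples, against 1186 and 1246 in untreated samples, a difference of 0.51 ± 0.38. Another kept probe set of Ppt1 had 148 and 161 in DSS samples, against 339 and 531 in untreated samples, the opposite direction. That probe set passed the filter on low values through the untreated arrays alone, and had to be lower in DSS samples.

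Grn encodes progranulin, a secreted and lysosomal glycoprotein that is cut into granulins. On its brightest probe set it had 26784 and 36259 in DSS samples, against 25309 and 68699 in untreated samples, a difference of -0.42 ± 0.53. The groups overlapped there, while both other probe sets separated them in the opposite direction. The second-brightest had 5349 and 8557 in DSS samples, against 1950 and 1593 in untreated samples (1.92), and the third 781 and 1268, against 594 and 434 (0.93). Progranulin therefore had no direction that all its probe sets shared.

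Membrane proteins had the highest median of the role classes, 0.76 log2 over 9 genes, with 5 higher on both DSS arrays, 1 lower and 3 overlapping. Lamp2, a main glycoprotein of the lysosomal membrane with a part in autophagy, had 4593 and 7229 in DSS samples, against 3977 and 1381 in untreated samples. All 4 of its kept probe sets were higher on both DSS arrays, by 0.50 to 1.35. The one at 1.35 passed the filter on low values through the DSS arrays alone. On the brightest, the difference was 1.28 ± 0.57 (SE, n = 2 per group, limma adjusted p = 0.649). Untreated replicate 2 weighed on this value: without it the difference was 0.53, and without untreated replicate 1 it was 2.04. Its relative Lamp1, which reaches the surface of cytotoxic lymphocytes when they release granules, had 6796 and 8298 in DSS samples, against 4324 and 4266 in untreated samples. Scarb2 (LIMP-2), the membrane receptor that carries glucocerebrosidase to lysosomes, was higher on both of its probe sets, by 0.96 and 1.22. Cd68, a sialomucin used as a macrophage marker, was higher by 0.76 ± 0.44, with 524 and 509 in DSS samples, against 251 and 337 in untreated samples. Laptm4a, a small transmembrane protein of late endosomes, was higher by 0.29.

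Laptm5, a related protein of blood cells that directs T cell receptor chains to lysosomes, stood apart from the other membrane proteins. Its brightest probe set had 41402 and 41850 in DSS samples, against 126585 and 132821 in untreated samples, and both groups were tight. The log2 difference there was -1.64 ± 0.33 (SE, n = 2 per group; limma adjusted p = 0.503). The other 4 probe sets did not follow it. On the second-brightest Laptm5 had 10541 and 8922 in DSS samples, against 4560 and 9915 in untreated samples (0.53), and on the remaining 3 the differences were -0.19, 0.34 and 1.91. Averaged over its probe sets, Laptm5 differed by 0.19, and after quantile normalization the brightest one differed by -0.95.

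Cln3, a lysosomal membrane protein lost in juvenile Batten disease, had 1474 and 1673 in DSS samples, against 237 and 2210 in untreated samples. The DSS signals lay between the untreated ones, and the difference of 1.05 ± 0.90 had no separation behind it. On its other probe set Cln3 was lower on both DSS arrays (-0.84). Mcoln1, the calcium channel TRPML1, overlapped at 0.42 and gave -0.28 and -0.31 on its other probe sets. Tcirg1, a subunit of the proton pump, overlapped at -0.09 with untreated signals of 855 and 2992.

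**Figure D2:**
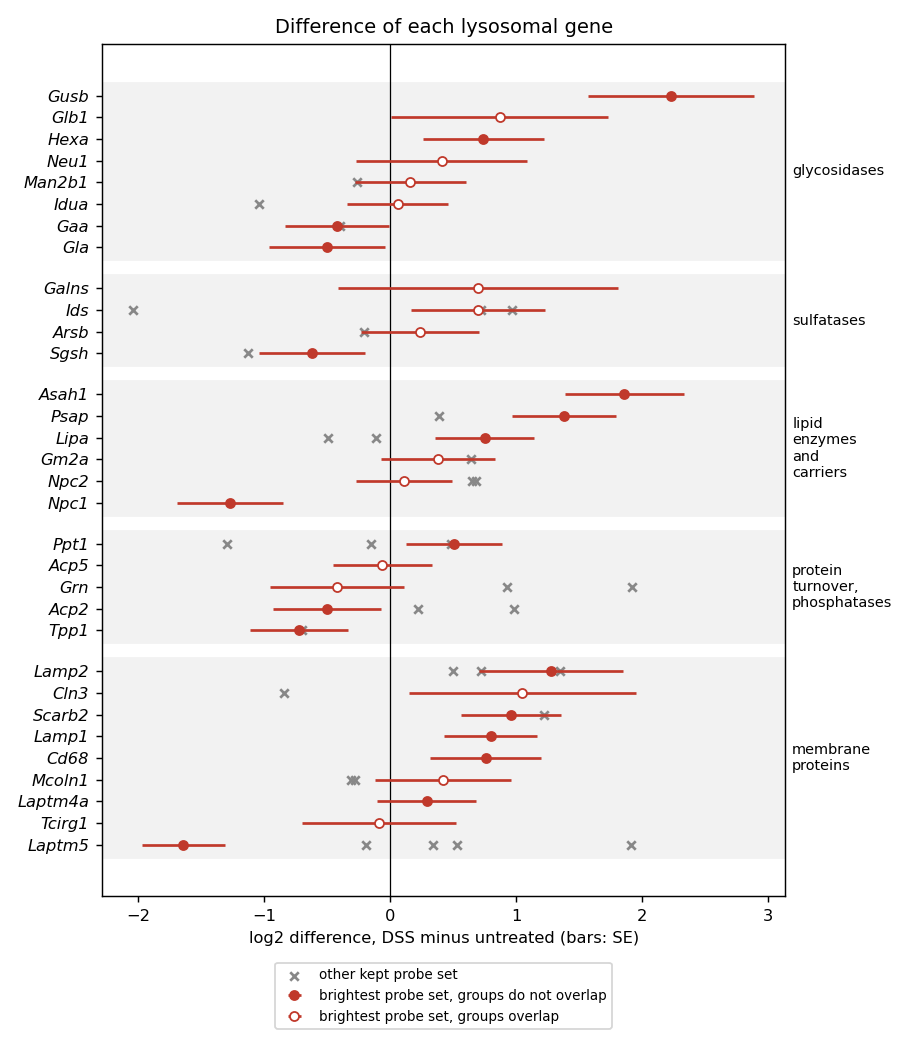
Log2 difference, DSS minus untreated, of each lysosomal gene by role, with the SE as bars; filled points are genes whose groups do not overlap on the brightest probe set, open points those that overlap, and crosses the other kept probe sets. Gusb (2.23) and Asah1 (1.86) lie farthest right and Laptm5 (-1.64) farthest left, with the other Laptm5 probe sets between -0.19 and 1.91.

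Agreement between probe sets sorted the genes further. Of the 65 kept probe sets, 22 lay higher on both DSS arrays (33.8%, against 17.5% of all kept probe sets) and 14 lay lower (21.5%, against 23.1%). Among genes with more than 1 kept probe set, Lamp2, Scarb2, Psap, Npc2 and Gm2a were higher, and Tpp1, Sgsh and Gaa lower, in mean on all of them. Of the 65, a probe set each of Lamp2, Ids and Gusb passed the filter through the DSS arrays alone, and a probe set each of Sgsh and Ppt1 through the untreated arrays alone. Those of Lamp2 and Sgsh therefore add nothing to the agreement within their genes. Laptm5, Ids, Ppt1 and Cln3 had kept probe sets that differed by 0.5 log2 or more in each direction. For Ppt1 the lower one was the probe set that passed through the untreated arrays alone. Among genes whose groups did not overlap, Gusb, Asah1, Npc1, Lamp1, Hexa, Cd68, Laptm4a and Gla had 1 kept probe set each. No other kept probe set checks them within the array. A Gusb probe set that failed the filter had 41.4 and 185 in DSS samples, against 3.6 and 76.4 in untreated samples, and overlapped. The brightest probe sets of Laptm5, Grn, Gaa, Lipa, Lamp2 and Mcoln1 end in _x_at or _s_at. Such probe sets may also hybridise with transcripts of similar sequence, so these values are uncertain.

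**Figure D3:**
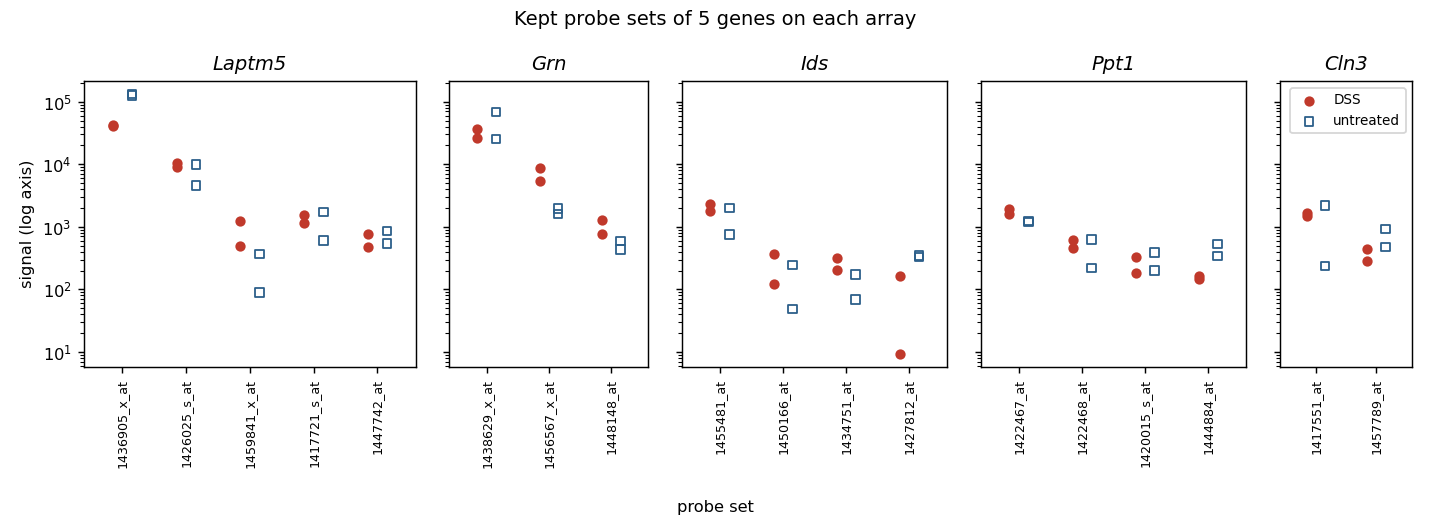
Signal (log axis) of every kept probe set of Laptm5, Grn, Ids, Ppt1 and Cln3 on the DSS arrays (filled circles) and untreated arrays (open squares). The brightest Laptm5 probe set is at 41402 and 41850 in DSS samples, below 126585 and 132821 in untreated samples, while the second-brightest Grn probe set runs the other way.

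Differences varied with signal level. Dim genes leaned lower in DSS samples as a class: genes with a mean signal under 500 had a median difference of -0.27, those of 500 to 2000 a median of 0.04, and those of 2000 or more a median of 0.11. The lysosomal genes in these classes had medians of 0.41 (7 genes), 0.42 (13 genes) and 0.33 (12 genes). Under 500, 2 of the 7 lay higher on both DSS arrays and 3 lay lower (12.4% and 29.9% of all genes of that class). The 2 include Gusb, which had to be higher because of the filter. From 500 to 2000, 3 of the 13 lay higher and 2 lower (20.5% and 19.4%). At 2000 or more, 6 of the 12 lay higher and 2 lower (23.9% and 15.5%).

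Many lysosomal genes carry in their promoters a CACGTG-centred element, the CLEAR motif, which TFEB and its relatives bind, so the sequence before each gene's start was read from RefSeq (GRCm38.p6). Windows covered 250 bases before to 50 after each start, and 30 of the 33 genes had one, while Asah1, Galns and Npc1 had no entry. Cln3 and Psap have 2 starts each and Acp5 and Tcirg1 have 3, and a gene counts where any of its windows holds the letters. The letters CACGTG, searched on both strands, were found in 7 of 30 genes (23.3%): Cln3, Gaa, Gla, Glb1, Lamp1, Mcoln1 and Sgsh. They were found in 8.91% of protein-coding genes and 8.09% of all genes with a window. The longer TCACGTGA, each copy of which contains a CACGTG, was in 3 of 30 genes (10%), Cln3, Gla and Mcoln1, against 1.41% of protein-coding genes. Shown first are the 4 promoters with more than 1 copy, Lamp1 (chr8:13158911-13159160, plus strand), Gla (chrX:134601006-134601255, minus strand), Mcoln1 (chr8:3500269-3500518, plus strand) and Cln3 (chr7:126583237-126583486, minus strand). Gusb (chr5:130003050-130003299, minus strand) and Psap (chr10:60277378-60277627, plus strand) follow as genes of higher DSS signal without the letters. The Cln3 window is that of its inner start, and its outer one has no CACGTG. Neither Psap window has it, and the outer one is shown. Each runs 5′ to 3′ over the 250 bases before the start, and capitals mark CACGTG.
Lamp1: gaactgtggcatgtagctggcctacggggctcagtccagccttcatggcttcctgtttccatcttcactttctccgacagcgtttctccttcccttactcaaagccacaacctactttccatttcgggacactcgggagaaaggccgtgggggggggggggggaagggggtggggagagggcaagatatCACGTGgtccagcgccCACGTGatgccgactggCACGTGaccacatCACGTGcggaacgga
Gla: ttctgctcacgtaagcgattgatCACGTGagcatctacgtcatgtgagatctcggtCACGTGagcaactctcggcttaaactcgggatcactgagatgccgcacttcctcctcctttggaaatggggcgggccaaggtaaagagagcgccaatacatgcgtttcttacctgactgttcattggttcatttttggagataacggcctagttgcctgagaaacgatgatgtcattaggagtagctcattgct
Mcoln1: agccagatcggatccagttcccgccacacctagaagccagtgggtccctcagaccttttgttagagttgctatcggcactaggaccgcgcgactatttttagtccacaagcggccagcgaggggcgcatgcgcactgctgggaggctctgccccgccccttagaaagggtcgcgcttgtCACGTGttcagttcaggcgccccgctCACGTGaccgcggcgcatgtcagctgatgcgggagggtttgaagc
Cln3: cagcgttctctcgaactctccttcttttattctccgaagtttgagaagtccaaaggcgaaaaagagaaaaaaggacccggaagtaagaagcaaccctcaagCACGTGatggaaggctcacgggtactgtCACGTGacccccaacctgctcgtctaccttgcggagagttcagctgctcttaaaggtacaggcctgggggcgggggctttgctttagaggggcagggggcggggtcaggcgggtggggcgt
Gusb: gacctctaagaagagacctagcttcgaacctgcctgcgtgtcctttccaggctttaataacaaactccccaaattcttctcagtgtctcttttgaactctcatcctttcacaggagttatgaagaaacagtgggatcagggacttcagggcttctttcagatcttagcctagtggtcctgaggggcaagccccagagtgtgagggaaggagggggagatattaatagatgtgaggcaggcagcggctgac
Psap: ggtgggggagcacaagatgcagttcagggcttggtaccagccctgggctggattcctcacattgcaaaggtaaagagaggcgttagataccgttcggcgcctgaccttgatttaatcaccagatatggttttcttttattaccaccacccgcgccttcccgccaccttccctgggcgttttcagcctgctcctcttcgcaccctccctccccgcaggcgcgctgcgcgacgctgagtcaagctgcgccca
Lamp1 holds 4 copies within the last 61 bases before its start, Gla and Cln3 hold theirs more than 100 bases upstream, and Mcoln1 holds its copies within 71 bases of the start.

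Genes with and without the letters were then set side by side. Of the 7 genes with CACGTG, 1 (Lamp1) lay higher on both DSS arrays and 3 (Gaa, Gla and Sgsh) lay lower, with a median of 0.42 log2, against 17.2% higher and 23.8% lower of all genes. Of the 22 tested genes with a window but no CACGTG, 9 lay higher and 3 lower, with a median of 0.34. The 9 include Gusb, which had to be higher because of the filter. The letters TGACTCA, the AP-1 site, searched on both strands, were in 5 of 30 genes (16.7%, against 5.40% of protein-coding genes): Cd68, Glb1, Laptm4a, Neu1 and Psap. In Glb1 the copy overlaps the CACGTG. GAGGAAGT, an Ets-family site bound by PU.1 in myeloid cells, was in Gla and Gusb (6.67%, against 3.64%). Of 47 other lysosomal genes with a window, from the list described next, TGACTCA was in 1 (2.13%), GAGGAAGT in 0 and CACGTG in 14 (29.8%). A match is a description of these letters in this window only.

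Other lysosomal genes, from a separate list of factors, sorting proteins, proton pump subunits, hydrolases and membrane proteins, were read in the same fit. Of 53 tested, 36 had a higher mean in DSS samples and 17 a lower one, and the median difference was 0.30 log2. Both DSS arrays lay above both untreated arrays for 23 and below them for 5, against 17.2% and 23.8% of all genes. None passed limma after adjustment, the smallest adjusted p being 0.565. The 23 include Tfeb and Ctbs, which passed the filter on low values through the DSS arrays alone and had to be higher. Tfeb, the factor that binds the CLEAR motif, had 185 and 499 in DSS samples, against 67.5 and 115 in untreated samples, a difference of 1.49 ± 0.75 on a dim probe set. Its relative Mitf differed by 0.62 ± 0.50.

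Among 7 sorting genes the median was 0.15 log2. M6pr, the cation-dependent mannose 6-phosphate receptor, had 3726 and 4579 in DSS samples, against 2198 and 1753 in untreated samples, a difference of 1.06 ± 0.38. Nagpa, the enzyme that uncovers the mannose 6-phosphate tag, had 286 and 62.7 in DSS samples, against 578 and 1047 in untreated samples (-2.23 ± 0.68), but its other probe set gave 0.06. Among 16 proton pump genes the median was 0.26, with 7 higher and 2 lower on both DSS arrays. Atp6v1a, the catalytic subunit, differed by 1.48 ± 0.50 where brightest and hardly at all on its other probe set, and Atp6v1f by 0.69 ± 0.37.

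Among 17 further hydrolases the median was 0.18 log2. Scpep1, a serine carboxypeptidase, had 3859 and 4398 in DSS samples, against 1429 and 1051 in untreated samples, a difference of 1.72 ± 0.39, with -0.55 on its other probe set. Ctbs, the chitobiase of glycoprotein breakdown, had 265 and 443, against 27.5 and 70.5 (2.27 ± 0.80). Its untreated signals were far under the array medians, so it passed the filter through the DSS arrays alone, as did Tfeb among the 53. Among 10 further membrane proteins the median was 0.56. Slc11a1 (Nramp1), a metal transporter of macrophage phagosomes, had 807 and 946 in DSS samples, against 170 and 511 in untreated samples (1.45 ± 0.55). Hgsnat, the acetyltransferase of heparan sulfate breakdown, had 1200 and 1236, against 89.0 and 946 (1.86 ± 0.89), and its untreated signals lay farther apart than that difference.

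**Figure D4:**
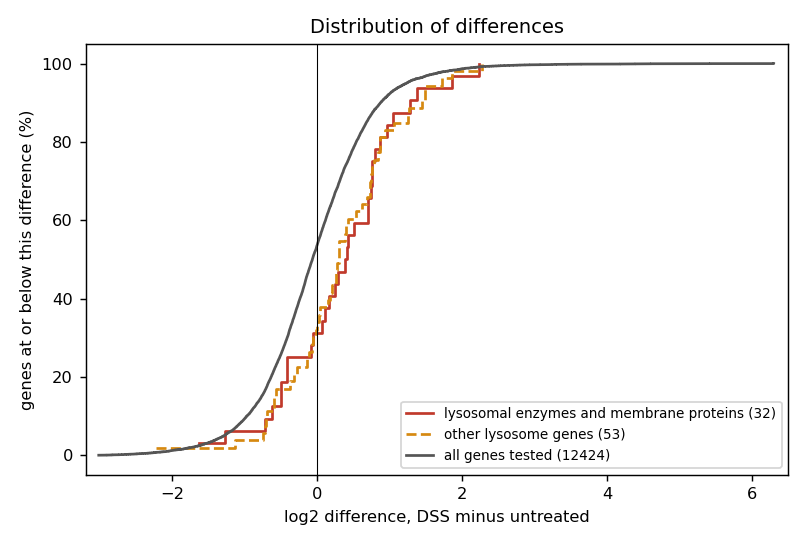
Cumulative share of genes (%) at or below each log2 difference, DSS minus untreated, for the 32 lysosomal enzymes and membrane proteins, 53 other lysosome genes and all 12424 genes tested. Both lysosomal curves lie to the right of all genes over the middle of the range, with medians of 0.39 and 0.30 beside -0.07.

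The macrophage and dendritic cell markers differed far more than the lysosomal genes. Their median difference was 2.38 log2 over 13 genes, and 9 of those were at least 2-fold higher on both DSS arrays. The 13 include C1qc, Mrc1 and Siglec1, which passed the filter through the DSS arrays alone. Itgax overlapped at -0.13, and Cx3cr1, Itgam, Timd4 and Mertk were measured but failed the filter. Csf1r, which macrophages need for their growth and survival, had 33267 and 40991 in DSS samples, against 4342 and 1162 in untreated samples. This was its brightest probe set, at 4.02, while the lowest of its 3 kept probe sets gave 1.52. That signal was the largest single part of the marker sum in DSS samples. None of the 17 macrophage and dendritic cell markers measured was at 0, and Timd4 was the only one of them below the array median on all arrays. Neutrophil markers summed to 1143 and 2458 in DSS samples, against 1934 and 2049 in untreated samples, and B and plasma cell markers to 1958 and 3098, against 1909 and 3135. Colon epithelial markers summed to 14465 and 12620 in DSS samples, against 11776 and 8791 in untreated samples. Mast cell markers summed to 2960 and 2858 in DSS samples, against 1445 and 2683 in untreated samples. Kit made up 1967 and 1942 of the DSS sums, against 751 and 798 in untreated samples, and its other kept probe set gave -0.58. Of the other tested mast cell markers, Mcpt4 was lower on both DSS arrays (-1.74), and Cpa3 and Mcpt2 overlapped. Fibroblast and endothelial markers summed to 1198 and 1803, against 1887 and 1602, and CD4 T cell markers to 483 and 452, against 884 and 665. The sorted cells' own markers were present on every array, with Cd3e, a chain of the T cell receptor complex, at 10288 and 11548 in DSS samples, against 7981 and 18964 in untreated samples. The part of macrophage transcripts in the lysosomal differences was not tested.

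**Figure D5:**
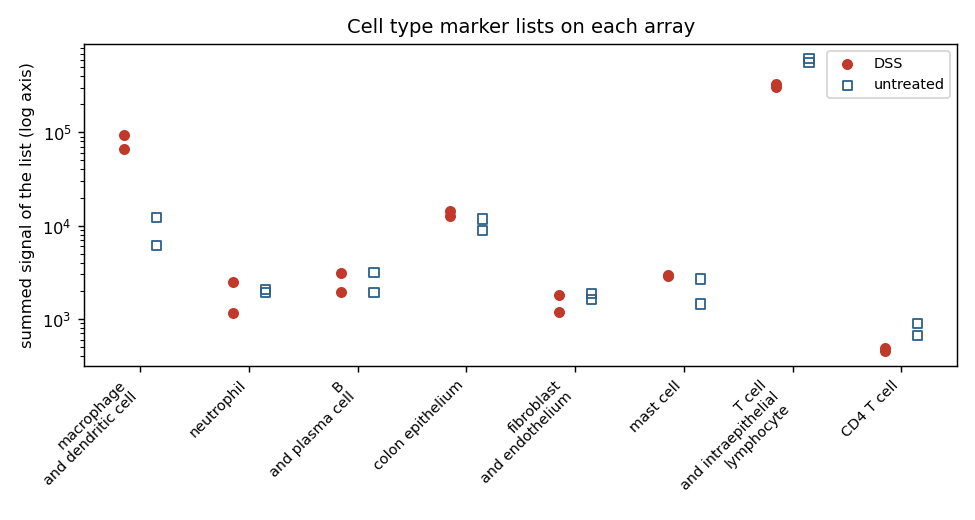
Summed signal (log axis) of each cell type marker list on the DSS arrays (filled circles) and untreated arrays (open squares). Macrophage and dendritic cell markers sum to 66675 and 93228 in DSS samples, above 12114 and 6078 in untreated samples, and T cell markers lie below their untreated sums.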

How the data were processed

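RNA (PicoPure kit) was amplified (RiboAmp HS) and put on 1 one-colour array a sample, per the labels' protocols. The deposited values are linear intensities of 45101 probe sets. The submitters' processing notes name GCOS, and the sources used here give no version, algorithm or settings. Each deposited array averages 500 once its lowest and highest 2% are dropped, so the arrays had been scaled alike. No detection calls were used. Precision is limited by the number of arrays.

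Using a platform table, 34945 probe sets were named by 1 gene symbol, controls left out, and 932 with several symbols were set aside. Kept probe sets lay above the median of the array on 2 or more of the 4 arrays, and a gene was read where its kept probe sets were brightest on average. A model with group alone was fitted to log2(signal + 32) by limma 3.58.1 in R 4.3.3 (lmFit, then eBayes with an intensity trend), and p-values were adjusted over all 12424 genes (Benjamini-Hochberg, 0.05). The fit was also run on simulated data with the same spread in both groups, unlike these arrays, and no result here rests on that run. Members, lists and settings were chosen with earlier results of these data known.

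Genes given array by array were those whose groups do not overlap and differ by 1 log2 or more, those with kept probe sets 0.5 or more in each direction, and the 3 brightest. Values of Hexa, Glb1, Galns, Lamp1, Cd68, Tcirg1, Csf1r and Cd3e were added after they were seen. Of the other lysosome genes, the 2 with the smallest p in each class were named. As alternatives, the pseudocount, scaling, variance model, filter, choice of probe set and replicate block were changed 1 at a time, and each array was left out.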

Additional observations from a re-analysis of the deposited data

How the results depend on the processing

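Limma called 0 genes in the comparison as reported, 1 with a filter requiring signals above the median on all arrays, 3 with probe sets averaged and 67 (61 higher, 6 lower) with the replicate number as a replicate block. None of these calls was a lysosomal member. The replicate numbers were not taken as pairing: same-numbered samples' deviations correlated at 0.0522 over genes. Leaving out 1 array gave 0 to 1791 called genes, the highest without untreated replicate 1 and 755 without untreated replicate 2.

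Leaving out 1 array in turn gave 13 to 20 members higher without overlap (25.5% to 36.9% of all genes), 7 to 15 lower (34.3% to 47.7% of all genes), 2 to 7 at least 2-fold higher, 2 to 3 at least 2-fold lower, and a member median of -0.04 to 0.53. With arrays scaled to a common median, 17 members were higher and 4 lower without overlap (30.9% and 12.5% of all genes), 1 was at least 2-fold lower, and the member median was 0.71, beside 0.25 for all genes. Quantile normalization left 0 members at least 2-fold lower, with a member median of 0.36 beside 0.01 for all genes. The strictest filter tested 28 members, of which 1 was at least 2-fold higher. With probe sets averaged the member median was 0.21, and 1 was at least 2-fold lower, as also with plain _at probe sets. The cause of these shifts was not tested. Other pseudocounts and no filter left these counts within 1.5 times the reported ones. The share of all genes at least 2-fold apart was not taken in any of these settings. The 2-fold counts given here therefore have no background and cannot be read as an excess.

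Of 502 member values recomputed, 28 changed sign, and 17 of the 32 members had at least 1 such value. The 502 include the fits with another variance model or the replicate block. Those fits leave each difference as reported, so they could not change a sign. Common-median scaling gave 0.28 for Acp5 and 0.25 for Tcirg1. Averaging probe sets gave -0.05 for Man2b1, -0.49 for Idua, -0.11 for Ppt1, 0.23 for Acp2, 0.81 for Grn, -0.06 for Mcoln1 and 0.19 for Laptm5. Plain _at probe sets gave -0.26 for Man2b1, -0.11 for Lipa, 0.93 for Grn and -0.31 for Mcoln1. With 1 array left out, values ranged from -0.53 to 2.27 for Glb1, -0.29 to 0.61 for Man2b1, -0.09 to 0.92 for Neu1 and -0.12 to 0.25 for Idua. They ranged from -1.22 to 2.62 for Galns, -0.28 to 0.76 for Arsb, -0.18 to 0.41 for Npc2 and -0.12 to 0.88 for Gm2a. They ranged from -0.23 to 0.11 for Acp5, -1.14 to 0.30 for Grn, -0.48 to 2.57 for Cln3, -0.23 to 1.07 for Mcoln1 and -0.97 to 0.80 for Tcirg1.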
